A study of Homo sapiens with 12 samples.

Results

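The 9 enzymes described here carry out serine synthesis and the folate one-carbon reactions that serine feeds: PHGDH, PSAT1, PSPH, SHMT1, SHMT2, MTHFD1, MTHFD2, MTHFD1L and ALDH1L2. They were taken by gene symbol from 4 deposited comparison tables that together list 32321 genes, of which 11692 were tested in all 4 tables, and all 9 enzymes are among those. The set was chosen by the log2 fold changes and adjusted p-values of these same comparisons, so those values and the calls based on them are a description of the enzymes, not a test of them.

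The study examined IGF2BP3, an RNA-binding protein that recognises mRNAs, including m6A-modified ones, in human acute myeloid leukaemia (AML) cell lines. RNA was sequenced in 12 libraries, 2 per group in 6 groups. MOLM13 cells, an AML line with a monocytic character, received a lentivirus carrying hairpin shBP3-1 or shBP3-2 against IGF2BP3, or the control hairpin shNS. U937 BP3-mAID cells, a myeloid line in which IGF2BP3 carries a mAID degron tag, were treated with 5-Ph-IAA, the compound that triggers degradation of the tagged protein, for 6 h or 24 h, or were left untreated (NT). All 3 U937 groups carry the tagged protein, and all 3 MOLM13 groups were exposed to hairpin lentivirus. No group of untagged cells received 5-Ph-IAA, and the labels give no time for NT. Effects of the compound, of time in culture and of IGF2BP3 loss therefore cannot be told apart in U937. The labels do not say whether the lines are single clones, nor whether the 2 libraries of a group came from separate cultures, so the p-values measure the spread between these libraries, which may be technical. The MOLM13 samples are labelled total RNA and the U937 samples polyadenylated RNA, while 1 protocol text for every library describes bead capture of mRNA.

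In serine synthesis, PHGDH oxidises the glycolytic intermediate 3-phosphoglycerate, PSAT1 transfers an amino group to the product, and PSPH removes the phosphate to give serine. SHMT1 in the cytosol and SHMT2 in mitochondria split serine into glycine and a one-carbon unit carried on tetrahydrofolate. In mitochondria MTHFD2 oxidises that unit, MTHFD1L releases it as formate and ALDH1L2 burns it to carbon dioxide while making NADPH, whereas in the cytosol MTHFD1 takes up formate and readies the units for purine and thymidylate synthesis. In many proliferating cells, leukaemia cells included, the mitochondrial branch supplies most one-carbon units.

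The genes lie on 8 chromosomes in hg38, by GENCODE coordinates. The serine synthesis genes are PHGDH (ENSG00000092621, chr1:119648411-119744226, plus strand), PSAT1 (ENSG00000135069, chr9:78297143-78330093, plus) and PSPH (ENSG00000146733, chr7:56011051-56051604, minus). The mitochondrial genes are SHMT2 (ENSG00000182199, chr12:57229327-57234935, plus), MTHFD2 (ENSG00000065911, chr2:74198562-74217565, plus), MTHFD1L (ENSG00000120254, chr6:150865549-151101887, plus) and ALDH1L2 (ENSG00000136010, chr12:105019784-105084577, minus). The cytosolic genes are SHMT1 (ENSG00000176974, chr17:18327860-18363563, minus) and MTHFD1 (ENSG00000100714, chr14:64388031-64463457, plus).

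Because the enzymes moved largely together, the sequence just upstream of their RefSeq starts (GRCh38.p14) was read for 3 short motifs on both strands. The table held 6 of the 9 genes, with 9 start windows of 250 bases. ALDH1L2, PSPH and SHMT2 were not among them. The motifs were CCAAT, the palindrome CACGTG, to which MYC and related factors bind, and TGATGNAA, the core of the element through which the amino acid stress factor ATF4 acts. CCAAT was found in all 6 genes and in 8 of the 9 windows, against 32.01% of all 35116 windows in the table and 33.4% of the 14096 windows of tested coding genes. Of those 8 windows 3 are overlapping windows of MTHFD1L that hold the same CCAAT, and the background shares count windows, not genes. CACGTG was found in 2 genes, MTHFD1 and MTHFD1L, in 3 windows, against 6.34% of all windows and 8.31% of those of tested coding genes. TGATGNAA was found in 1 gene, MTHFD1L, in 2 overlapping windows, against 3.14% of all windows and 1.77% of those of tested coding genes. No matches to different motifs overlapped each other in these genes. By GENCODE, the MTHFD1 window begins inside an exon of the gene, and the PHGDH window has 31 bases before its first exon base. The matches of these 2 genes and TGATGNAA of MTHFD1L lie past the first exon base of their windows, and CACGTG of MTHFD1L runs across it. Those matches are thus upstream of a RefSeq start but not of all annotated exons.

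The stretches upstream of PSAT1, the enzyme with the largest changes, MTHFD2 and SHMT1 are shown with CCAAT, or ATTGG on the opposite strand, in capitals. The first is chr9:78296875-78297124 on the plus strand, with 3 matches, the second chr2:74198365-74198561 on the plus strand, with 2, and the last chr17:18363564-18363800 on the minus strand, with 2. For MTHFD1L, 30 bases at chr6:150866346-150866375 on the plus strand are shown, with TGATGNAA in capitals. This stretch lies past the first annotated exon base of its windows, whereas the other 3 stretches end before theirs or hold none.
PSAT1: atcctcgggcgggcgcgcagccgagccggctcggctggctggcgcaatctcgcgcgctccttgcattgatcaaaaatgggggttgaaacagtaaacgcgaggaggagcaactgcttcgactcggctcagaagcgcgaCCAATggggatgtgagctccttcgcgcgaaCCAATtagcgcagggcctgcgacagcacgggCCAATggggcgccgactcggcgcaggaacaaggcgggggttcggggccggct
MTHFD2: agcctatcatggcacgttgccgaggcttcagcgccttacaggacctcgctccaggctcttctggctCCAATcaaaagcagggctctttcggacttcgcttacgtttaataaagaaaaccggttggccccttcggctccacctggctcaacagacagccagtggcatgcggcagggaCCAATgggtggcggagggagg
SHMT1: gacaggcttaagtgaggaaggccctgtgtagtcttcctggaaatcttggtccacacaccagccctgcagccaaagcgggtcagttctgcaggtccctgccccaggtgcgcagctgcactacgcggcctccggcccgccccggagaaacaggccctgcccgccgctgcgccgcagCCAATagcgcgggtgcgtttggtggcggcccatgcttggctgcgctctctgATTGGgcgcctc
MTHFD1L: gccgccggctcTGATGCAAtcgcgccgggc
A match is a string of letters and was not linked to binding of any factor here.

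The libraries behind these values averaged 22544563 and 22028570 normalised counts in the shBP3-1 and shBP3-2 tables and 11826946 and 12360751 in the 6 h and 24 h tables. Genes with a mean of at least 1000 counts had a median standard error of 0.11, 0.09, 0.07 and 0.06 on the log2 scale in those tables. Values per library are not given in these tables, so each level below is the mean of the 2 libraries of a group, without an SD. The target itself was checked first: IGF2BP3 mRNA stood at 768.4 normalised counts with shBP3-1 and 918.0 with shBP3-2, against 1922 and 1880 with shNS, or 40.0% and 48.8% of control. IGF2BP3 was thus lower with shBP3-1, whereas each enzyme described here had its lower fold change with shBP3-2. The hairpins were not tested against each other. Opposite-strand genes cover 35.8% of the exonic bases of IGF2BP3. Among them MALSU1, named after its values were seen, had log2 fold changes of -0.22 with shBP3-1 and -1.10 with shBP3-2. IGF2BP3 had -1.32 and -1.03 in the authors' deposited table. The part of MALSU1 in the IGF2BP3 values was not tested. In U937 cells the agent is meant to act on the protein, which was not measured in these data. The IGF2BP3 mRNA there had a log2 change of -0.27 and an adjusted p of 0.168 at 6 h, and of 0.15 and 0.254 at 24 h, in the authors' deposited table. It thus checks nothing. All 10 myeloid markers examined were listed in every table, though CD68 was near 0 in both lines and MPO in U937. Of 4 T cell markers 1 was listed in each table, and the summed T cell, B cell and erythroid markers came to less than 5 CPM (normalised counts scaled to the group's total, as counts per 1000000) in every group. Epithelial and stromal markers summed to 41.9 CPM with shBP3-1 and 26.8 with shBP3-2 against 42.5 with shNS, mostly from KRT18.

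A gene was called changed at an adjusted p under 0.05 by DESeq2, without a minimum fold. All 9 enzymes fell with shBP3-1, where 16% of the 16282 genes tested were called lower and 17.7% higher, and all 9 fell with shBP3-2, where 22.1% of 20768 were called lower and 19.4% higher. After 6 h of 5-Ph-IAA treatment 7 fell and 2 were not called, where 12.3% of 13940 genes were called lower and 10.9% higher. At 24 h 8 fell and 1 rose, where 19.9% of 16104 genes were called lower and 18.9% higher. Falls of at least 2-fold were found for 5 enzymes with shBP3-1, where 3.49% of tested genes fell that far, and for 7 with shBP3-2, where 7.77% did. At 6 h 1 enzyme fell that far, against 1.33% of tested genes, and at 24 h 4 did, against 3.19%. The median log2 fold change of the enzymes was -1.18 with shBP3-1, -1.79 with shBP3-2, -0.64 at 6 h and -0.91 at 24 h in the authors' deposited table, where the medians of all tested genes were -0.01, 0.02, 0.01 and 0.01. These shares are given as background only, since the enzymes were picked with the contrasts known. Both comparisons of a cell line share their 2 control libraries, so they are not independent of each other. In these bulk samples, fewer cells that make a transcript and less transcript per cell cannot be told apart.

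**Figure D1:**
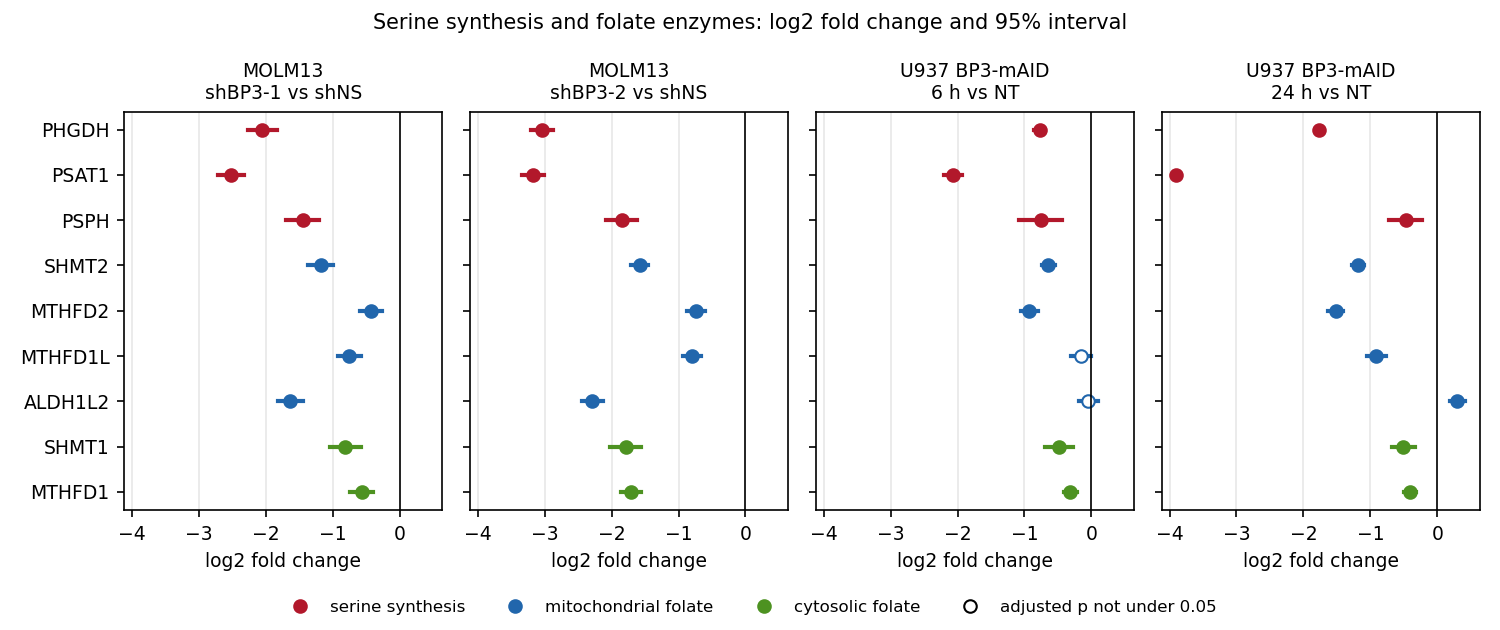
Log2 fold change of each enzyme (x axis) with its 95% interval (bars) in the 4 comparisons. Red marks serine synthesis, blue mitochondrial and green cytosolic folate enzymes, and open circles have an adjusted p not under 0.05. PSAT1 has the lowest value in every panel, PSAT1 and PHGDH at 24 h have no interval because their adjusted p is listed as 0, and ALDH1L2 at 24 h is the only enzyme right of 0.

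PSAT1 had the largest fall of the 9 in each comparison. It averaged 1328 normalised counts with shBP3-1 against 7644 with shNS, and 825.3 with shBP3-2 against 7478 with shNS. The 2 shNS values are the same libraries on the scale of each table. PSAT1 thus stood at 17.4% and 11.04% of control, and its log2 fold changes were, by the authors' deposited table, -2.53 (95% interval -2.72 to -2.33) and -3.18 (-3.35 to -3.01). In U937 cells it averaged 851.3 counts at 6 h against 3570 in NT, and 252.1 at 24 h against 3759 in NT. The authors' deposited table gives log2 fold changes of -2.07 (-2.20 to -1.93) and -3.90 for these. Ordered from the lowest fold change, PSAT1 was 31st of 16282 genes with shBP3-1, 164th of 20768 with shBP3-2, 19th of 13940 at 6 h and 5th of 16104 at 24 h.

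PHGDH, the entry enzyme of the pathway, fell in all 4 comparisons and was next to PSAT1 in size in 3 of them. With shBP3-1 it averaged 1409 normalised counts against 5847 with shNS, and with shBP3-2 695.5 against 5719 with shNS. In the authors' deposited table the hairpin changes were -2.05 (-2.27 to -1.83) and -3.04 (-3.20 to -2.88). The U937 change was smaller at 6 h than at 24 h, with 3453 counts at 6 h against 5905 in NT and 1828 counts at 24 h against 6219 in NT. Those are log2 fold changes of -0.77 (-0.86 to -0.69) and -1.77 in the authors' deposited table.

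PSPH, the last enzyme of the pathway, had the smallest fall of the 3 serine synthesis enzymes in each comparison, though at 6 h its value was next to that of PHGDH. It averaged 556.3 counts with shBP3-1 against 1520 with shNS, and 411.9 with shBP3-2 against 1487 with shNS, which is 36.6% and 27.7% of control. In U937 cells PSPH was at 238.7 counts at 6 h against 402.8 in NT, and at 306.2 at 24 h against 424.1 in NT. Its log2 fold change in the authors' deposited table was -0.76 (-1.08 to -0.43) at 6 h and -0.47 (-0.72 to -0.22) at 24 h. These 2 intervals overlap, and the difference between the times was not tested. Of the 75-base windows along its transcript, 1.43% also occur in another gene, chiefly the pseudogene PSPHP1, the highest such share among the 9 enzymes.

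SHMT2, which feeds the mitochondrial branch, fell in all 4 comparisons. It averaged 4524 counts with shBP3-1 against 10258 with shNS, and 3349 with shBP3-2 against 10034 with shNS. It averaged 2952 at 6 h against 4611 in NT, and 2138 at 24 h against 4856 in NT. By the authors' deposited table these were log2 fold changes of -1.18 (-1.37 to -0.99), -1.58 (-1.71 to -1.45), -0.64 (-0.74 to -0.55) and -1.18 (-1.27 to -1.09) in that order. SHMT2 was therefore at 44.1% of control with shBP3-1 and 44.0% of control at 24 h.

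MTHFD2, which oxidises the unit that SHMT2 makes, had the smallest falls of the set in MOLM13 and the second largest at 6 h in U937. It averaged 8625 counts with shBP3-1 against 11562 with shNS, and 6770 with shBP3-2 against 11310 with shNS, with log2 fold changes of -0.42 (-0.59 to -0.26) and -0.74 (-0.87 to -0.61) in the authors' deposited table. In U937 cells it averaged 1922 counts at 6 h against 3652 in NT and 1342 at 24 h against 3845 in NT. Those log2 fold changes were -0.93 (-1.05 to -0.80) and -1.52 (-1.62 to -1.41) in the authors' deposited table. Of the exonic bases of MTHFD2, 36.3% also lie in exons of genes on the opposite strand. The strand setting of the counting is not given in the sources used here, so reads from MTHFD2 and those genes cannot be told apart. The opposite-strand gene AC006030.1, named after its values were seen, had a base mean of 2.01 and 2.99 in the shBP3-1 and shBP3-2 tables and of 1115 and 1042 in the 6 h and 24 h tables, where its log2 fold changes of -0.96 and -1.54 in the authors' deposited table were close in value to those of MTHFD2. For SHMT2 the share was 15.1%, and AC137834.2, opposite to it and chosen likewise, had base means of 19.5 and 16.3 in the shBP3-1 and shBP3-2 tables and 419.6 and 384.8 in the 6 h and 24 h tables. Its log2 fold changes at 6 h and 24 h, -0.58 and -1.15 in the authors' deposited table, were likewise close to those of SHMT2. The part of these genes in the values of MTHFD2 and SHMT2 was not tested.

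MTHFD1L, the formate-releasing enzyme, fell by a like amount with both hairpins and at 24 h. It averaged 3339 counts with shBP3-1 against 5627 with shNS, and 3154 with shBP3-2 against 5504 with shNS. At 6 h it averaged 1379 against 1538 in NT, a log2 fold change of -0.16 (-0.31 to -0.01) that was not called in the authors' deposited table (adjusted p = 0.128). At 24 h it averaged 862.7 against 1620 in NT, and the log2 fold change in the authors' deposited table was -0.91 (-1.05 to -0.77). With the hairpins it was -0.75 (-0.93 to -0.58) and -0.80 (-0.94 to -0.67) in the authors' deposited table.

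ALDH1L2 fell with both hairpins in MOLM13 and rose at 24 h in U937. In MOLM13 it averaged 2040 counts with shBP3-1 against 6328 with shNS and 1263 with shBP3-2 against 6190 with shNS, the third largest fall of the set with each hairpin. The authors' deposited table gives -1.63 (-1.82 to -1.44) and -2.29 (-2.45 to -2.14) as the log2 fold changes. In U937 cells ALDH1L2 averaged 1599 counts at 6 h against 1654 in NT, a log2 fold change of -0.05 (-0.19 to 0.09; adjusted p = 0.707) in the authors' deposited table. At 24 h it rose to 2148 against 1742 in NT, with a log2 fold change of 0.30 (0.19 to 0.42; adjusted p = 2.5e-06) in the authors' deposited table. The ratio of ALDH1L2 to MTHFD2 counts was 0.237 with shBP3-1 and 0.187 with shBP3-2 against 0.547 with shNS, and in U937 it was 0.453 in NT, 0.832 at 6 h and 1.60 at 24 h. The lines were normalised in separate tables, and the difference between them was not tested. Nor was the part of the opposite-strand genes at MTHFD2 in this ratio.

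The cytosolic pair fell with both hairpins, and the fold changes with shBP3-2 were the larger. SHMT1 averaged 764.2 counts with shBP3-1 against 1342 with shNS, and 378.9 with shBP3-2 against 1313 with shNS. MTHFD1 averaged 3527 with shBP3-1 against 5229 with shNS, and 1567 with shBP3-2 against 5115 with shNS. In the authors' deposited table the log2 fold changes with shBP3-1 and shBP3-2 were -0.81 (-1.05 to -0.58) and -1.79 (-2.03 to -1.56) for SHMT1. For MTHFD1 they were -0.57 (-0.74 to -0.40) and -1.71 (-1.86 to -1.56) in the authors' deposited table. The intervals of the 2 hairpins do not overlap for either gene. This was not particular to the pair. PSAT1, PHGDH, SHMT2, MTHFD2 and ALDH1L2 likewise had larger falls with shBP3-2, without overlap of the intervals. For PSPH and MTHFD1L the falls were also larger with shBP3-2, but the intervals overlapped. The hairpins were not tested against each other.

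In U937 cells the same pair changed least among the enzymes called lower, apart from PSPH at 24 h. SHMT1 averaged 636.4 counts at 6 h against 887.7 in NT and 657.2 at 24 h against 934.4 in NT, which is 71.7% and 70.3% of control. MTHFD1 averaged 3200 at 6 h against 3974 in NT and 3171 at 24 h against 4184 in NT, which is 80.5% and 75.8% of control. For these genes the 6 h and 24 h values lay close together, whereas the percent of control of PSAT1, PHGDH, SHMT2, MTHFD2 and MTHFD1L was lower at 24 h than at 6 h. The times were not tested against each other.

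**Figure D2:**
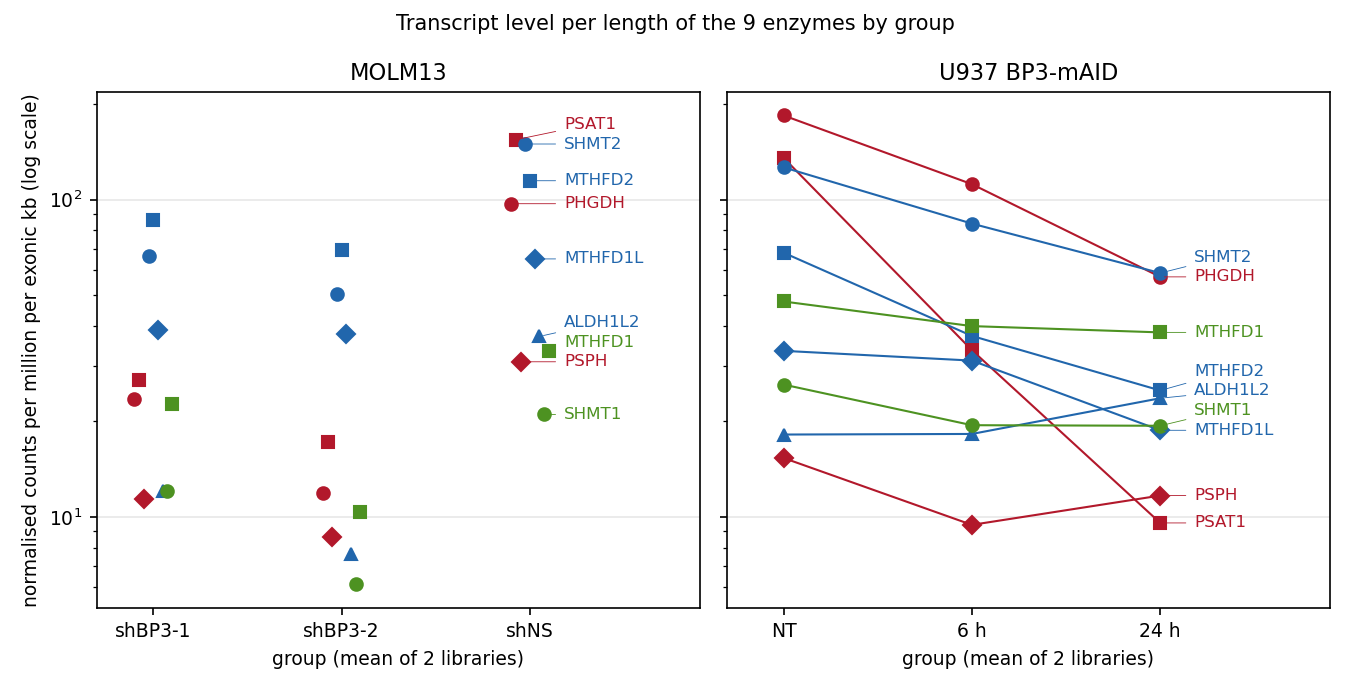
Level of each enzyme per exonic length (y axis, normalised CPM per kilobase, log scale) in each group (x axis), with colours as in the plot of fold changes. Points are means of 2 libraries without error bars, MOLM13 points are spread sideways for legibility, and lines join the U937 times. In NT cells PHGDH is highest at 184 and PSPH lowest at 15.3, and at 24 h PSAT1 is lowest at 9.58.

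Levels were also divided by the merged length of the annotated exons of each gene, to set different genes roughly side by side. By this measure PSAT1 led in shNS cells with 154 normalised CPM per kilobase, followed by SHMT2 with 150, MTHFD2 with 115 and PHGDH with 97.0. The other enzymes were between 21.0 for SHMT1 and 65.0 for MTHFD1L. With shBP3-1 the order was led by MTHFD2 at 86.2 and SHMT2 at 66.5, and PSAT1 stood at 27.0. With shBP3-2 MTHFD2 was at 69.3, SHMT2 at 50.4 and PSAT1 at 17.2. In NT cells PHGDH was highest at 184, then PSAT1 at 135 and SHMT2 at 126, while ALDH1L2 at 18.2 and PSPH at 15.3 were lowest. At 24 h SHMT2 at 58.7 and PHGDH at 57.1 led, and PSAT1 at 9.58 was below PSPH at 11.7. Without values per library it cannot be said which neighbours in these orders differ beyond their spread. The orders also depend on the annotated length, which need not be that of the transcripts these cells make.

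Summed over the 9 enzymes, transcripts came to 1163 normalised CPM with shBP3-1 and 840.1 with shBP3-2, against 2446 with shNS. In U937 the sum was 2174 in NT, 1399 at 6 h and 1056 at 24 h. As a percent of control the serine synthesis enzymes were lowest, with a sum at 22.1% of control with shBP3-1, 13.3% with shBP3-2, 47.8% at 6 h and 24.2% at 24 h. In CPM the mitochondrial sum was the larger, at 825.1 with shBP3-1 and 663.2 with shBP3-2 against 1492 with shNS, and the serine synthesis sum was at 146.6 and 88.2 against 663.2 with shNS. The mitochondrial sum was at 55.3%, 44.4%, 71.2% and 56.8% of control in that order. The cytosolic sum was at 65.8%, 30.6%, 82.0% and 78.9% of control. Serine synthesis thus made up 12.6% of the 9-enzyme total with shBP3-1 and 10.5% with shBP3-2, against 27.1% with shNS. In U937 its part was 37.7% in NT, 28.0% at 6 h and 18.8% at 24 h. By compartment, the ratio of MTHFD2 to MTHFD1 counts was 2.45 with shBP3-1 and 4.32 with shBP3-2 against 2.21 with shNS. In U937 this ratio was 0.919 in NT, 0.601 at 6 h and 0.423 at 24 h. Exons of opposite-strand genes cover 36.3% of the exonic bases of MTHFD2 and 6.66% of those of MTHFD1. Neither the part of those genes in this ratio nor the difference between the lines was tested. CPM values divide by the total of the group, so they can differ slightly from the percent of control of single genes.

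**Figure D3:**
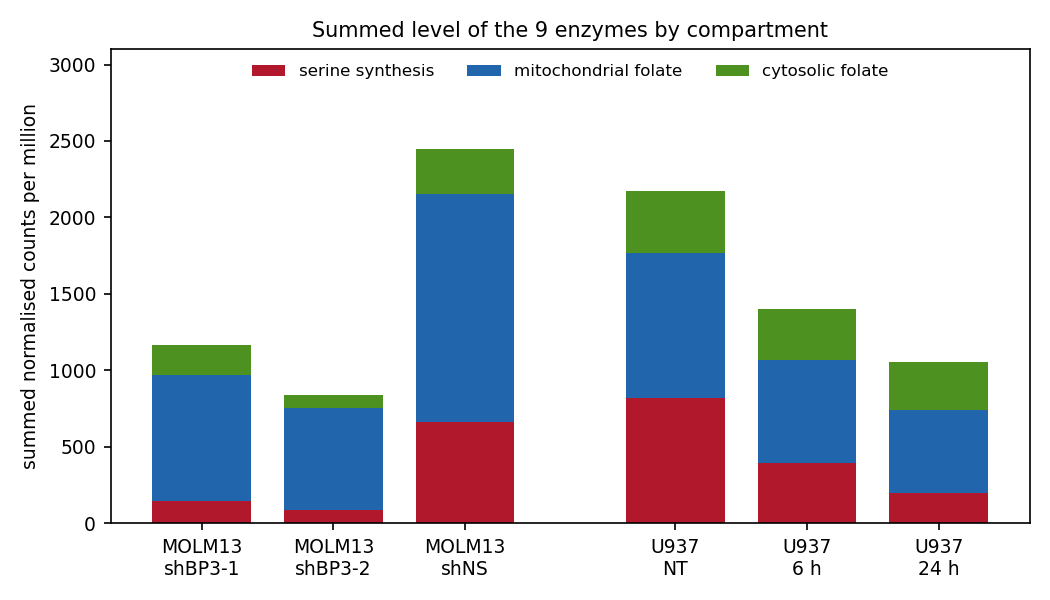
Stacked sums of normalised CPM (y axis) of the serine synthesis, mitochondrial and cytosolic enzymes in each group (x axis), each a mean of 2 libraries without error bars. The total is 1163 and 840.1 in the hairpin groups against 2446 in shNS, and 2174, 1399 and 1056 in NT, 6 h and 24 h.

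Related genes were described by lists of 40 folate and serine neighbours, 10 purine synthesis genes and 22 genes of ATF4 and its stress targets. Lists of 22 proliferation genes and 10 regulators were used likewise. Counts for every list are to be read against the shares of all tested genes called lower and higher. These were 16% and 17.7% with shBP3-1, 22.1% and 19.4% with shBP3-2, 12.3% and 10.9% at 6 h, and 19.9% and 18.9% at 24 h. Of the neighbours tested, 15 of 34 fell and 5 rose with shBP3-1, 20 of 37 fell and 6 rose with shBP3-2, 9 of 28 fell and 2 rose at 6 h, and 16 of 31 fell and 3 rose at 24 h. Their medians were log2 fold changes of -0.41, -0.56, -0.10 and -0.33 in the authors' deposited table. Cystathionine gamma-lyase CTH, which releases cysteine from a serine-derived intermediate, fell in all 4 comparisons, with -2.69, -2.62, -1.05 and -0.96 in the authors' deposited table. The neutral amino acid transporter SLC1A5 also fell in all 4, with -1.07, -2.31, -0.56 and -1.15 in the authors' deposited table.

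The glycine transporter SLC6A9 fell with both hairpins, to 34.7 and 19.04 counts with shBP3-1 and shBP3-2 against 308.0 and 301.3 with shNS. Serine dehydratase SDS, which breaks serine down, rose to 172.3 counts with shBP3-1 against 30.8 with shNS and to 361.3 with shBP3-2 against 30.1 with shNS. SDSL, a related dehydratase, rose with both hairpins and at 24 h, with 1.84, 2.02 and 0.95 in the authors' deposited table. CBS, which joins serine to homocysteine, fell with both hairpins, but the annotation holds a near-identical copy, CBSL, so its counts are uncertain. Thymidylate synthase TYMS, which uses a folate one-carbon unit, fell in all 4 comparisons, with -1.19, -2.58, -0.22 and -0.81 in the authors' deposited table.

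Purine synthesis takes formyl groups from the cytosolic folate pool. Of its 10 genes 9 fell with each hairpin, 4 fell and 1 rose at 6 h, and 8 fell and 1 rose at 24 h, with medians of -0.55, -1.18, -0.13 and -0.38 in the authors' deposited table. PAICS fell in all 4, with -0.82, -2.17, -0.37 and -0.74 in the authors' deposited table, and PFAS likewise, with -0.91, -1.72, -0.26 and -0.40. IMPDH2, on the branch to guanine nucleotides, fell with both hairpins and at 6 h and rose at 24 h, where the authors' deposited table gives 0.29. PPAT and ADSL fell in the other 3 comparisons and were not called at 6 h.

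**Figure D4:**
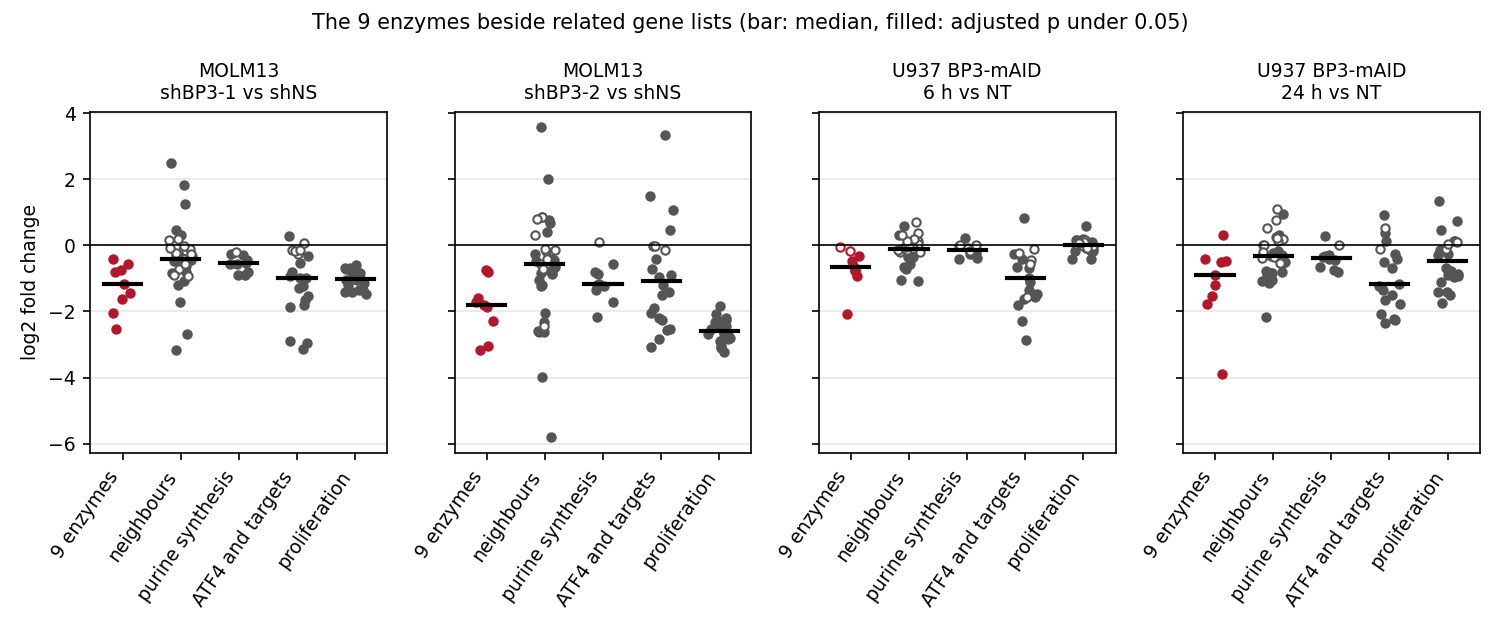
Log2 fold change (y axis) of the 9 enzymes (red) and of the tested genes of 4 related lists (grey) in each comparison, with filled circles for an adjusted p under 0.05 and a bar at each list's median. The ATF4 list has medians of -1.0, -1.08, -0.98 and -1.16 and the proliferation list -1.02, -2.59, 0.02 and -0.48 in the order of the panels.

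ATF4, a transcription factor of the amino acid stress response known to drive genes of serine synthesis, fell in all 4 comparisons, with log2 fold changes of -0.80, -0.72, -1.10 and -1.24 in the authors' deposited table. Of the ATF4 list 15 of 21 tested genes fell and 1 rose with shBP3-1, 15 of 22 fell and 4 rose with shBP3-2, 13 of 19 fell and 1 rose at 6 h, and 14 of 19 fell and 3 rose at 24 h. Their medians were -1.0, -1.08, -0.98 and -1.16 in the authors' deposited table. GPT2, PCK2, DDIT4, SESN2 and TRIB3 fell in all 4 comparisons, whereas CHAC1 fell with both hairpins (-3.13 and -3.07) and was at -0.55 and 0.51 in U937, not called, in the authors' deposited table. ASNS, the asparagine synthetase, fell with both hairpins and at 24 h, and STC2 fell with both hairpins and was not tested in U937. Whether ATF4 had a part in the values of the serine and folate enzymes was not tested, and its protein was not measured in these data.

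MYC, a driver of growth genes, fell with both hairpins (-0.98 and -1.52) and at 24 h (-0.49), and at 6 h it had -0.11 with an adjusted p of 0.0864 in the authors' deposited table. NFE2L2, which encodes the oxidative stress factor NRF2, rose with both hairpins (0.59 and 0.69) and was not called in U937 (-0.04 and 0.10) in the authors' deposited table. Over the list of regulators 9 were tested. Of these, 3 fell and 3 rose with shBP3-1, 5 fell and 2 rose with shBP3-2, 3 fell and 1 rose at 6 h, and 4 fell and 3 rose at 24 h. Counts this small say little beside the shares of all tested genes. The part of these regulators in the values of the 9 enzymes was not tested.

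Proliferation genes moved beside the enzymes in MOLM13 but not at 6 h in U937. All 22 fell with each hairpin, with medians of -1.02 and -2.59 in the authors' deposited table. Examples with shBP3-1 and shBP3-2 are the replication factor CDC45 (-1.47 and -3.11), the helicase subunit MCM4 (-1.05 and -2.47), the mitotic kinase PLK1 (-1.01 and -2.90) and the cycling marker MKI67 (-1.40 and -2.83) in the authors' deposited table. At 6 h 6 fell and 5 rose with a median of 0.02 in the authors' deposited table, and CDC45 was at -0.02 and MCM4 at -0.08, neither called. At 24 h 14 fell and 5 rose with a median of -0.48, with CDC6 at -1.74 and PLK1 at 1.33 in the authors' deposited table. Summed myeloid marker transcripts were 7630 normalised CPM with shBP3-1 and 12043 with shBP3-2, against 2060 with shNS, and 793 in NT, 1066 at 6 h and 1222 at 24 h. Most of that sum in MOLM13 came from 1 gene, lysozyme (LYZ), at 6258 CPM with shBP3-1 and 10577 with shBP3-2 against 1061 with shNS. Of the 10 myeloid markers 9, 10, 8 and 8 were tested in the shBP3-1, shBP3-2, 6 h and 24 h tables. Of these 6 rose and 1 fell with shBP3-1, 5 rose and 1 fell with shBP3-2, 3 rose and 1 fell at 6 h, and 6 rose and 1 fell at 24 h. The marker that fell was MPO with both hairpins (-1.50 and -2.49), LYZ at 6 h (-0.56) and ITGAM at 24 h (-1.75) in the authors' deposited table. These markers were named after their values were seen. The part of proliferation or of the myeloid markers in the values of the 9 enzymes was not tested.

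The genes whose 4 log2 fold changes lay closest to those of PSAT1, PHGDH and SHMT2, by Euclidean distance among 9570 genes with a base mean of at least 50 in every table, are given as a description. For PSAT1 they were ADM2 at a distance of 1.37, RGS16 at 1.94, SCD at 2.04, ULBP1 at 2.16 and VLDLR-AS1 at 2.30. For PHGDH they were GPT2 at 0.77, DSCC1 at 0.90, RGS16 at 0.95, SPC24 at 0.96 and RAD54L at 0.96. For SHMT2 they were CDK2 at 0.27, SLC7A1 at 0.34, GINS4 at 0.41, SLCO4A1 at 0.42 and IARS1 at 0.42.

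IGF2BP proteins are reported to prefer GGAC, the letters at the heart of most m6A sites, so its frequency was counted on the longest coding transcript of each enzyme. It was 6.19 per kilobase in PHGDH, 5.68 in SHMT1, 5.12 in SHMT2 and 4.72 in MTHFD1L, and lower in PSAT1 with 1.83, MTHFD1 with 1.76 and MTHFD2 with 1.57. PSPH had 3.67 and ALDH1L2 2.65. Over 11870 coding genes the median was 3.66 per kilobase, with quartiles at 2.48 and 5.33, and 5 of the 9 enzymes lay above that median. PSAT1, which fell most, held 4 copies of GGAC in 2188 bases. These are letters in a transcript, and neither methylation nor binding was measured in these data.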

How the data were processed

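RNA sequencing data of 12 libraries were used as 4 comparison tables. The submitters' processing notes name cutadapt 4.1, HISAT2 2.1.1, HTSeq 2.0.2 and DESeq2, with genome build hg38. The strand setting, the form of the test and any shrinkage are not given in the sources used here. The signal value is, per the file headers, the base mean, the mean of the 4 libraries' read counts after the authors scaled them for library size. The log2 value is the fold change of treated over control as the authors deposited it. The p-value in the deposited tables was adjusted by the authors over the genes they tested.

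A fit with edgeR was planned for tables with values per library, and the authors' DESeq2 statistics were used in its place, as provided for tables without them. The Benjamini-Hochberg adjustment was reversed to obtain raw p-values, and standard errors and 95% intervals follow from them assuming a normal Wald test. Of the 36 enzyme values 6 had a tied adjusted p, which gives the interval at its widest, and 2 listed as 0 gave none. The mean of each group was solved from base mean and fold change, taking both groups as equally large. The control means from both tables of a line then kept 1 ratio to within 0.5% over 4621 genes in MOLM13 and 2869 in U937. The steps were run on values simulated under these same assumptions. That run checks the arithmetic and cannot check the assumptions. The standard errors come from the authors' adjusted p-values, and no counting error was worked out.

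The members and the gene lists were chosen with earlier results of these data known. From the lists, genes called with at least 1.5-fold change in at least 2 comparisons are named, up to 8 per list by mean absolute log2 fold change, plus ATF4 and MYC; the 5 nearest profiles are given for the 3 members with the largest such mean. Of the genes so named, 1 is not reported here. Of 32321 gene IDs, 13000 matched GENCODE 29 with version and 30760 without. Promoter sequences are from RefSeq (GRCh38.p14). Alternatives were a threshold of 0.01, a minimum of 1.5-fold, adjustment over genes with a base mean of at least 50, and other centrings. Python 3.11.15, pandas 2.3.3, NumPy 2.4.6, SciPy 1.17.1 and matplotlib 3.10.9 were used.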

Additional observations from a re-analysis of the deposited data

How the results depend on the processing

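No paired analysis was possible because the tables hold no values per library. For the same reason leaving out each replicate, another normalization and another tool were not run, so the calls rest on the authors' DESeq2 fit alone. The enzymes' counts of calls were the same in all 4 comparisons at an adjusted p under 0.01, and when adjusted over genes with a base mean of at least 50. With a minimum of 1.5-fold, 7 enzymes were called with shBP3-1 in place of 9, 9 with shBP3-2 as before, and 5 at 6 h in place of 7. At 24 h 5 were called in place of 9, because the falls of PSPH, SHMT1 and MTHFD1 and the rise of ALDH1L2 were smaller than that. With this minimum the neighbour genes called numbered 12 in place of 20 with shBP3-1, 20 in place of 26 with shBP3-2, 5 in place of 11 at 6 h and 11 in place of 19 at 24 h. The share of all tested genes that passes this minimum was not worked out. These counts thus show only how the calls depend on the minimum, without a background to read them against. Centring the fold changes on the median of all tested genes, or of genes with a base mean of at least 1000, kept all 36 enzyme values on the same side of their call. The median of those high-count genes was 0.03, -0.12, 0.01 and -0.02 on the log2 scale with shBP3-1, with shBP3-2, at 6 h and at 24 h, so the shBP3-2 values of the enzymes are to be read against -0.12.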
